A study of Mus musculus with 2 samples.

Results

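The MHC-II-high monocyte-derived cells described here are 107 of the 12514 CD45-selected cells sequenced, 16 of 5320 in library 1 and 91 of 7194 in library 2. They were chosen on raw UMIs, the counts of separate transcript molecules: at most 10% mitochondrial UMIs, at least 20 UMIs of Lyz2, at least 10 of H2-Ab1, at least 2 of Ear2, Cyp4f18, Sirpb1c and Retnla together, under 30 of C1qa, C1qb and C1qc together, at most 1 of Cd209a, at most 1 of Cd3d, Cd3e and Cd3g together, and 0 of Xcr1, Flt3 and Cd79a. These genes chose the cells, so their levels are given as a description.

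Blood monocytes that enter a tissue can become macrophages or cells that resemble dendritic cells. Along the way many of them switch on MHC class II, the molecules that show peptides taken up from outside to CD4+ T cells. Classical mouse monocytes carry Ly6C, encoded in part by Ly6c2, and follow Ccl2 into tissue through the receptor Ccr2. Non-classical monocytes lose Ly6C, depend on the nuclear receptor Nr4a1 and patrol the vessel wall. In tumours, monocyte-derived cells with MHC class II have been described beside macrophages and conventional dendritic cells.

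The cells came from subcutaneous tumours in C57BL/6 mice, grown for 2 weeks from MTC-Q1 cells, a mouse tumour line. In 1 group the injected MTC-Q1 cells lacked miR-21, a microRNA that lowers the expression of its target genes, and in the other they were unmodified (WT); the mice themselves are labelled alike. All tumours had been exposed to cisplatin, a DNA-damaging drug, at 5 mg/kg, and were collected 72 hours later, so no group without the drug was measured here. Dead cells were removed, CD45+ cells were taken with magnetic beads, and 1 droplet library of transcript 3′ ends was made for each group. The labels do not say how many tumours or mice went into a library, nor whether the knockout cells are 1 clone.

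No source used here ties the library numbers to the knockout or the WT group. The libraries are therefore called library 1 and library 2, and no difference below has a direction between the genotypes. With 1 library per group there is no replicate check: no test was made, and all intervals are 95% intervals that cover counting error only.

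The 16 cells of library 1 held 217873 UMIs with a median of 11430 per cell, and the 91 cells of library 2 held 1254744 with a median of 11086. Median mitochondrial shares were 2.16% in library 1 and 1.55% in library 2. Gm42418, which overlaps ribosomal RNA, took 32794 CPM (summed UMIs of the cells, scaled to a fixed total in each library) in library 1 and 7391 CPM in library 2. Free RNA, estimated from markers of T cells, NK cells, B cells and fibroblasts, had a median of 3.94% of UMIs in library 1 and 16.6% in library 2. The single estimates differed widely, from 0.647% (NK) to 9.10% (T cell) in library 1 and from 9.86% (NK) to 31.4% (fibroblast) in library 2. The T cell estimates of the libraries were close, at 9.10% and 10.4%, so these medians are rough. Both libraries share 8 barcode sequences, and none of these belongs to the 107 cells. A doublet score marked no barcode by its automatic threshold. Among the 5% of barcodes with the highest scores were 1 of the 16 cells and 4 of the 91.

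The name was first held against marker genes of other lineages. In library 1 the T cell list had a UMI for 4 of its 8 genes outside the rule, the NK list for 1 of 8, the neutrophil list for 2 of 10 and the fibroblast list for 3 of 7. In library 2 these lists had a UMI for 7 of 8, 8 of 8, 7 of 10 and 6 of 7 genes. Mast cell and basophil genes reached 0 CPM (library 1) and 2.39 CPM (library 2), and all 6 erythroid and platelet genes were at 0 in both. The signal lay in a few cells. With a limit of 20 UMIs of any list, set after the values were seen, 1 cell of library 1 and 6 cells of library 2 passed. They are called cells of another lineage below, although such a sum does not settle what a cell is. The cell of library 1 held 34 UMIs of Il7r and 1 of Trbc2, so it passed on Il7r almost alone. In library 2, 3 cells held 327, 273 and 85 UMIs of fibroblast genes. Of the others, 1 held 182 UMIs of NK genes, 1 held 55 of NK and 24 of T cell genes, and 1 held 45 of neutrophil genes. In this last cell 26 were of S100a9 and 14 of S100a8, which are also on the list of classical monocyte genes. Below, the values that rest most on these cells are also given without them.

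The name was then held against the cells it describes. Of 20 genes listed for non-classical monocytes, 7 had at least 100 UMIs over the 107 cells. Ccr2 was found in 16 of 16 cells of library 1 and 87 of 91 cells of library 2. Tgfbi, an extracellular matrix protein abundant in monocytes and one of the marker genes given for these cells that the rule did not use, was found in 16 of 16 and 90 of 91. Among T cells 6.34% and 41.6% had a UMI of Ccr2 and 3.50% and 16.6% one of Tgfbi. After thinning to 4000 UMIs, Ccr2 was detected in 81.3% and 81.3% of the cells and Tgfbi in 93.8% and 94.5%. Of these 7, Clec4a3 had a UMI in 14 of 16 and 73 of 91 cells, Gngt2 in 13 of 16 and 82 of 91, Cx3cr1 in 9 of 16 and 54 of 91 and Nr4a1 in 11 of 16 and 68 of 91, against 56.3% and 52.3% of T cells for Nr4a1. Other genes of the list were rare: Ace had a UMI in 2 of 16 and 8 of 91 cells, Treml4 in 1 of 16 and 10 of 91, and Cd300e in 0 of 16 and 2 of 91. Zbtb46, a transcription factor of conventional dendritic cells, had a UMI in 1 of 16 and 3 of 91 cells. Tgfbi was also at 1237 (library 1) and 781 CPM (library 2) in the C1q macrophage gate defined below, and Ccr2 at 498 (library 1) and 277 CPM (library 2), so neither is particular to monocytes here. The cells were a mixture in Ly6c2, in cycling genes and in the genes that admitted them.

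**Figure D1:**
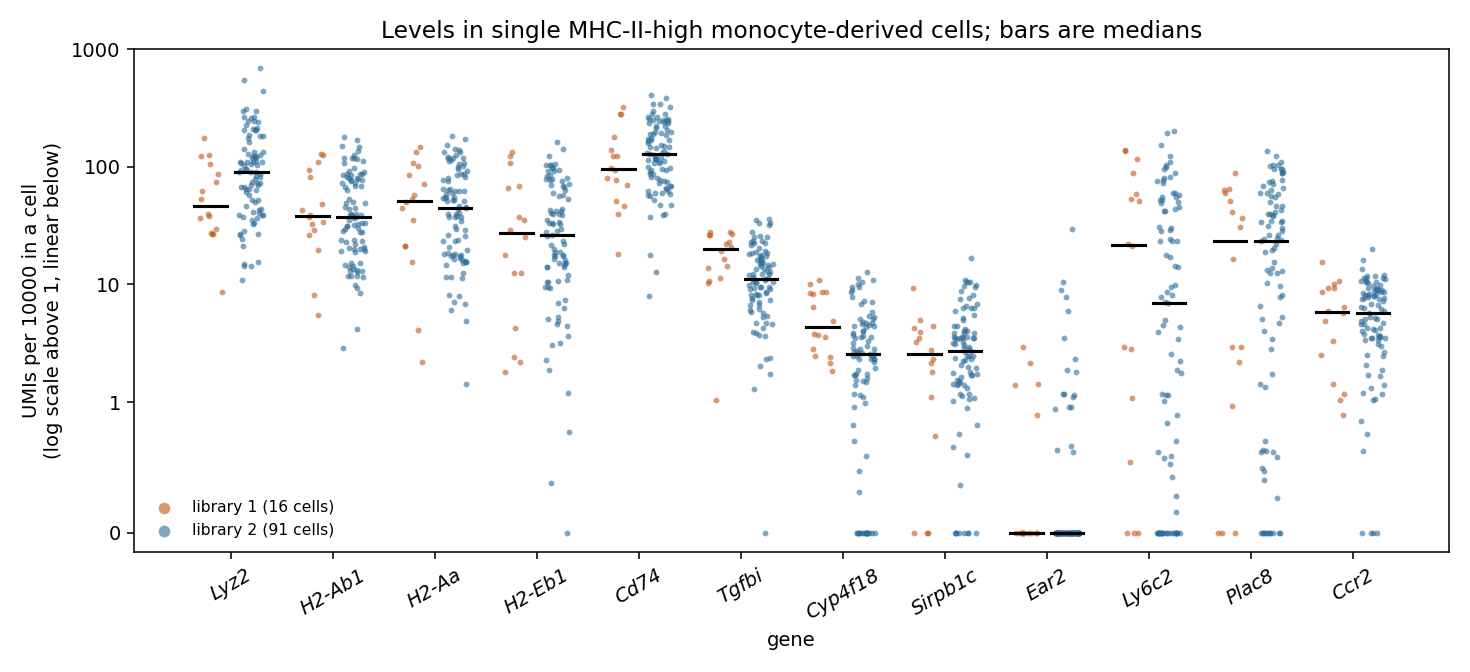
UMIs per 10000 in each cell (vertical axis, logarithmic above 1 and linear below) for 12 genes, library 1 on the left (16 cells) and library 2 on the right (91 cells) of each gene, with black bars at the medians. Lyz2, H2-Ab1, Cyp4f18, Sirpb1c and Ear2 were used in the rule; Ly6c2 and Plac8 spread from 0 to over 80 per 10000, while Ccr2 had medians of 5.8 and 5.7.

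The 4 genes of the joint threshold did not admit the cells equally. Cyp4f18 (chr8:71988482-72009626, minus strand, GRCm38), a cytochrome P450 that breaks down leukotriene B4, had a UMI in 16 of 16 cells of library 1 and 75 of 91 cells of library 2. Among T cells, which should lack it, 4.21% and 4.36% had a UMI, at median depths of 6923 and 12213 UMIs. Sirpb1c (chr3:15795145-15848528, minus strand), a signal-regulatory protein, had a UMI in 13 of 16 and 83 of 91 cells, against 0.574% and 2.44% of T cells. After thinning to 4000 UMIs per cell, Cyp4f18 remained detected in 87.5% of the cells of library 1 and 60.4% of those of library 2, and Sirpb1c in 50% and 67.0%.

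Ear2 (chr14:44102654-44103534, plus strand), an eosinophil-associated ribonuclease, had a UMI in only 5 of 16 and 19 of 91 cells, and 3 cells of library 2 held 62.0% of its 163 UMIs there. Retnla (chr16:48842551-48844461, plus strand), a resistin-like secreted protein, had a UMI in 0 cells of library 1 and 2 cells of library 2. No cell needed Ear2 or Retnla to pass, whereas 2 and 20 cells would not have passed without Cyp4f18 and 0 and 24 not without Sirpb1c. Cyp4f18 and Sirpb1c admitted most cells, but like cells carried them too: Cyp4f18 was at 487 (library 1) and 289 CPM (library 2) in the cells and 237 (library 1) and 191 CPM (library 2) in the monocyte gate, and Sirpb1c at 234 (library 1) and 337 CPM (library 2) in the cells and 294 (library 1) and 170 CPM (library 2) in that gate. Ear1 and Ear10, close relatives of Ear2, and Sirpb1a and Sirpb1b, close relatives of Sirpb1c, could share reads with these genes.

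The thresholds that bounded the cells most were those for MHC class II and C1q. Without the H2-Ab1 threshold 74 more cells of library 1 and 504 of library 2 would have entered, and without the C1q limit 191 and 332. Without the Lyz2 threshold 15 and 41 would have entered, without the Cd3 limit 3 and 38, and without the joint threshold 0 and 17. Cells just inside the H2-Ab1 threshold (10 to 14 UMIs, 3 cells of library 1 and 12 of library 2) averaged 873 CPM of H2-Aa and 1977 CPM of Ly6c2. Cells just outside it (5 to 9 UMIs, 4 and 17 cells) averaged 645 CPM of H2-Aa and 2644 CPM of Ly6c2. Cells with 20 to 29 C1q UMIs (1 and 9 cells) had 914 CPM of Ly6c2 and 2297 CPM of Plac8, and cells with 30 to 39 (0 and 6 cells) had 870 CPM of Ly6c2 and 968 CPM of Plac8.

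The share of the cells depended on the denominator. They made up 0.305% (exact Clopper-Pearson interval 0.175 to 0.495; 16 of 5241) of library 1 barcodes with at most 10% mitochondrial UMIs and 1.28% (1.03 to 1.57; 91 of 7098) of those of library 2. Of barcodes with at least 20 UMIs of Lyz2 they made up 3.25% (1.87 to 5.22; 16 of 493) and 2.74% (2.21 to 3.35; 91 of 3324), and these intervals overlap. With the rule applied to counts thinned to 4000 UMIs, 0.210% and 0.535% of barcodes passed, 11 and 38 cells. Of these, 5 and 28 were among the 107, so the membership itself depended on depth.

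MHC class II genes were abundant in the cells of both libraries. H2-Aa encodes the partner chain of H2-Ab1, and H2-Eb1 a chain of the other class II molecule. Cd74, the invariant chain that guides class II through the cell, was at 14412 CPM (library 1) and 14200 CPM (library 2). H2-Aa was at 6697 CPM (library 1) and 5331 CPM (library 2), and H2-Eb1 at 5324 (library 1) and 3904 CPM (library 2). H2-DMa and H2-DMb1, which load peptides onto class II, were at 624 CPM (H2-DMa) and 973 CPM (H2-DMb1) in library 1, and at 543 CPM (H2-DMa) and 697 CPM (H2-DMb1) in library 2. Ciita, the transactivator of class II genes, was at 55.1 CPM (library 1) and 33.5 CPM (library 2).

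Within the cells, the class II genes varied together. H2-Aa ranged from 2.19 to 149 per 10000 over the 16 cells of library 1 with a median of 51.7. In library 2 it ranged from 1.43 to 183 per 10000 over 91 cells with a median of 45.0. Spearman's rho with H2-Ab1 across cells was 0.93 and 0.94 for H2-Aa, 0.88 and 0.92 for H2-Eb1, and 0.90 and 0.91 for Cd74. It was lower for the loading genes, at 0.51 and 0.54 for H2-DMa and 0.39 and 0.55 for H2-DMb1. With Ly6c2 it was -0.13 and -0.14. These are descriptions over 16 and 91 cells that share a library, and the rule cut H2-Ab1 from below. Depth had a rho of 0.19 and -0.09 with the H2-Ab1 level.

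The promoters of class II genes are shown because these genes varied together from cell to cell, and that of Isg15 because the interferon genes differed within the cells (below). Each is 250 bases before to 50 after the gene's start, from RefSeq on GRCm38.p6, in the gene's own direction. Capitals mark TGATTGG, the letters of the CCAAT box read on its other strand, which forms the Y box of class II promoters, or GAAA followed after 2 free bases by GAAA, the core of an interferon-stimulated response element. The matches began 50 bases before the start in H2-Aa, 61 in H2-Eb1 and 63 in H2-DMb1. In Isg15, 3 overlapping matches began 78, 72 and 66 bases before the start.
H2-Aa, chr17:34287774-34288073, minus strand: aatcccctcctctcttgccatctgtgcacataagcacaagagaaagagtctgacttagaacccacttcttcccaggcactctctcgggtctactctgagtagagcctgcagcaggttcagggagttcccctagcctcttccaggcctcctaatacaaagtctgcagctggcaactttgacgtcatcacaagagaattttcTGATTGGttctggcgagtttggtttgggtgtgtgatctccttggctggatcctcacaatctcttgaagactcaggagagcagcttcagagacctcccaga
H2-Eb1, chr17:34305617-34305916, plus strand: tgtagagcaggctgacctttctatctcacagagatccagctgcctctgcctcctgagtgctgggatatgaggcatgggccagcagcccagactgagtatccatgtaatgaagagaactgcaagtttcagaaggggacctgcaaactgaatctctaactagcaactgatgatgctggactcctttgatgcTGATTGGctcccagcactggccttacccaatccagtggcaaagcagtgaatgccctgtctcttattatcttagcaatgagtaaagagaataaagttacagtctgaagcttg
H2-DMb1, chr17:34152941-34153240, plus strand: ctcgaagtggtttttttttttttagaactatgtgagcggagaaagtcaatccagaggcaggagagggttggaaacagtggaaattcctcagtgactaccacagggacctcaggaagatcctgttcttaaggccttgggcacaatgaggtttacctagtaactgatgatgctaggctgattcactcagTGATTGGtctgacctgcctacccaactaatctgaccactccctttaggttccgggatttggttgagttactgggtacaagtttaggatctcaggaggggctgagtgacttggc
Isg15, chr4:156200769-156201068, minus strand: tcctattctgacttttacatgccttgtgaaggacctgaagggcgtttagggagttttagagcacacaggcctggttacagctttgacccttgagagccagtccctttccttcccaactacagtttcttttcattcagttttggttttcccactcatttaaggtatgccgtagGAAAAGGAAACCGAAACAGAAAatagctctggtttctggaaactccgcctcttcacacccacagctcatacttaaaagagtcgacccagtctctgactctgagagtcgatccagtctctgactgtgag
Searched on both strands, TGATTGG occurred in 2538 of 32544 promoters of this length (7.80%). Cd74 was left out of the class II list for this count. Of the other 9 genes of that list 7 had a promoter sequence, and TGATTGG occurred in 6 of the 7. The spaced GAAA pair occurred in 1122 of 32544 (3.45%) and in 7 of 15 listed type I interferon genes with a promoter. The motifs do not overlap one another in these windows. A match is a description of letters, not of binding.

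The cells were next set beside like cells of the same libraries. In all, 3 neighbouring sets were gated on raw UMIs. The monocyte gate (Lyz2 at least 20, Ly6c2 at least 5, H2-Ab1 and C1q each under 10) held 75 cells of library 1 and 489 of library 2. The C1q macrophage gate (Lyz2 at least 20, C1q genes at least 100) held 241 and 1568, and the Cd209a dendritic gate (Cd209a at least 3, H2-Ab1 at least 10, C1q under 30) held 11 and 99. H2-Ab1, Ly6c2, Lyz2, C1q and Cd209a were used in these rules, so the class II genes beside H2-Ab1 follow in part from the choice. H2-Aa was at 6697 (library 1) and 5331 CPM (library 2) in the cells, at 8876 (library 1) and 8668 CPM (library 2) in the dendritic gate and at 84.2 (library 1) and 38.2 CPM (library 2) in the monocyte gate. In the C1q macrophage gate it was at 5846 CPM (library 1) and 825 CPM (library 2). The cells were thus below the dendritic gate in both libraries and far above the monocyte gate.

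**Figure D2:**
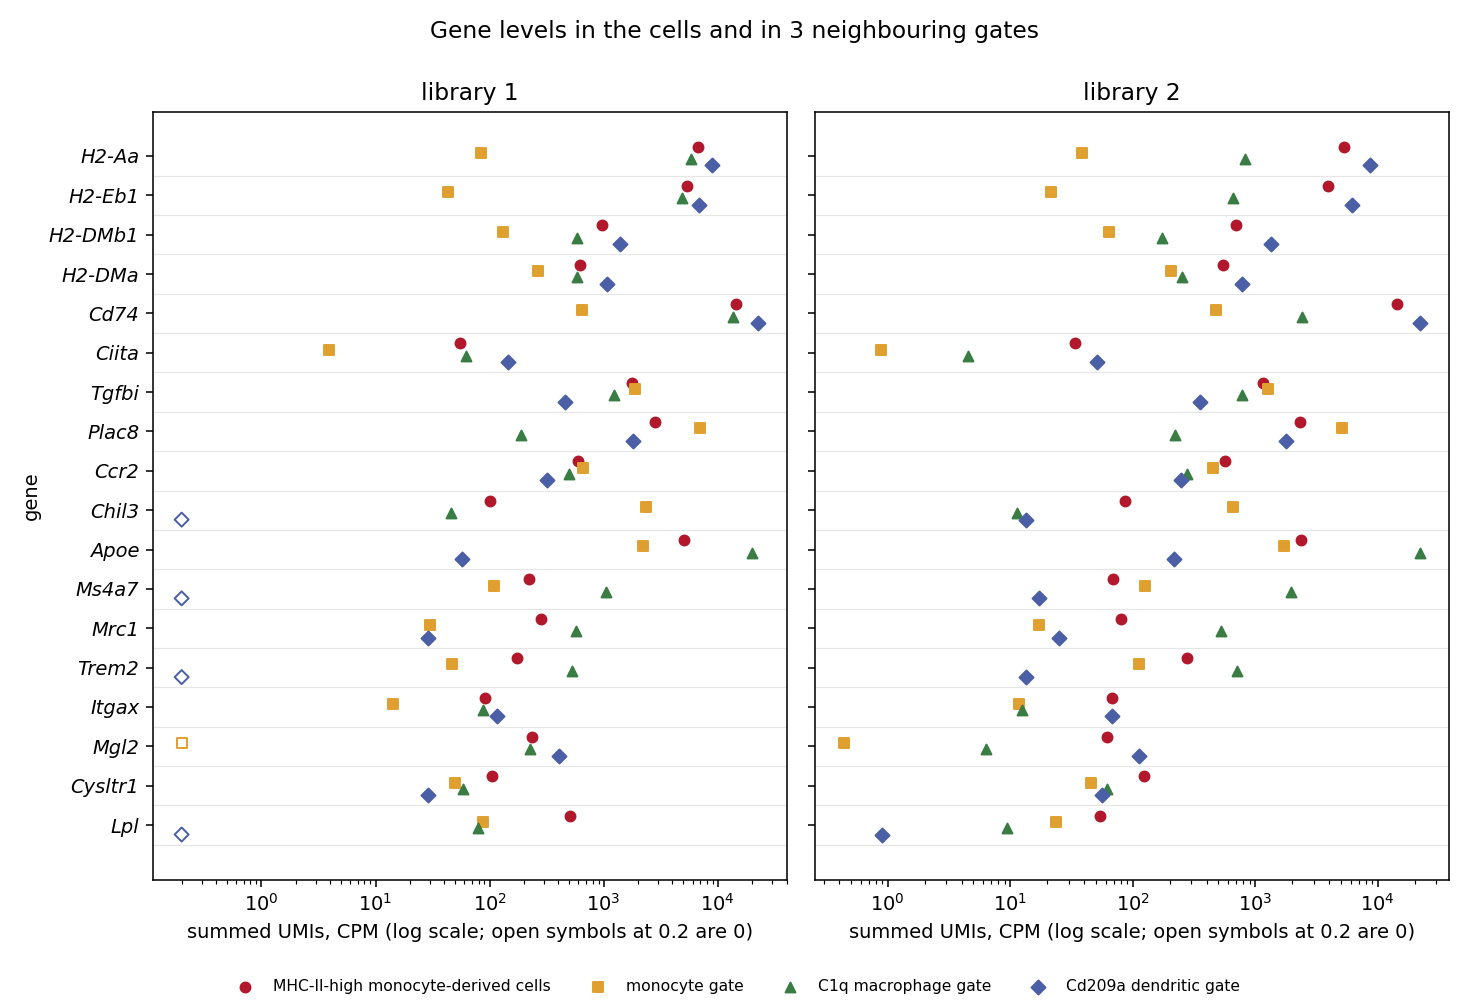
Summed UMIs as CPM (horizontal axis, log scale) of 18 genes in the MHC-II-high monocyte-derived cells (red circles) and in the monocyte gate (yellow squares), C1q macrophage gate (green triangles) and Cd209a dendritic gate (blue diamonds), library 1 on the left and library 2 on the right. The red circles sit left of the dendritic gate and far right of the monocyte gate for H2-Aa, H2-Eb1 and Cd74, beside the monocyte gate for Tgfbi, and far left of the C1q macrophage gate for Apoe and Ms4a7.

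Genes of classical monocytes divided into those that the cells kept near the monocyte gate and those that were low. Tgfbi (chr13:56609523-56639562, plus strand) was at 1767 (library 1) and 1147 CPM (library 2) in the cells, against 1869 (library 1) and 1260 CPM (library 2) in the monocyte gate. Ccr2 was at 592 (library 1) and 570 CPM (library 2), against 661 (library 1) and 453 CPM (library 2). Plac8, a gene of classical monocytes, was at 2786 (library 1) and 2311 CPM (library 2), against 6935 (library 1) and 5081 CPM (library 2). Chil3, a chitinase-like protein, was at 101 (library 1) and 86.9 CPM (library 2), against 2348 (library 1) and 657 CPM (library 2). The cells of both libraries lay below the monocyte gate for Plac8, Chil3, Vcan and Hp. For Ccr2 the order differed between the libraries. The monocyte gate required Ly6c2, whereas many of the cells had little of it (below). Genes that vary with Ly6c2 are therefore lower in the cells in part by the choice of that gate. Among the cells, Spearman's rho of Plac8 with Ly6c2 was 0.42 in library 1 and 0.70 in library 2.

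As a list, macrophage genes were well below the C1q macrophage gate. Without the C1q genes they summed to 7582 CPM (library 1) and 4211 CPM (library 2) in the cells. The C1q macrophage gate had 26532 (library 1) and 31270 CPM (library 2), and the monocyte gate 4761 (library 1) and 4283 CPM (library 2). The cells were thus above the monocyte gate in library 1 only. Apoe, a lipid carrier, was at 5076 CPM in the cells of library 1 and 2349 CPM in those of library 2, against 19890 (library 1) and 22147 CPM (library 2) in the C1q macrophage gate. Ms4a7 was at 220 (library 1) and 69.3 CPM (library 2), against 1039 (library 1) and 1946 CPM (library 2), and Folr2, a folate receptor of resident macrophages, at 0 (library 1) and 1.6 CPM (library 2), against 104 (library 1) and 246 CPM (library 2). Trem2, a lipid-sensing receptor, was at 174 (library 1) and 277 CPM (library 2), against 532 (library 1) and 710 CPM (library 2). Fcgr1, an Fc receptor of the same list, was closer to that gate. It was at 464 (library 1) and 490 CPM (library 2), against 569 (library 1) and 658 CPM (library 2). Across bins of C1q UMIs within the cells of library 2 (0 to 4, 5 to 14 and 15 to 29; 65, 15 and 11 cells) the macrophage list without the C1q genes summed to 4024, 4554 and 4776 CPM. In library 1 the sums went the other way, at 8946, 4210 and 2794 CPM, over 13, 1 and 2 cells. Over the same bins of library 2 Ly6c2 was at 2332, 807 and 1315 CPM.

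Dendritic genes split in a similar way. Itgax, the integrin CD11c, was at 91.8 CPM (library 1) and 67.7 CPM (library 2), against 115 (library 1) and 67.4 CPM (library 2) in the dendritic gate and 14.3 (library 1) and 11.8 CPM (library 2) in the monocyte gate. In the C1q macrophage gate Itgax was at 88.3 (library 1) and 12.5 CPM (library 2), so in library 1 macrophages had it at a like level. Mgl2, a galactose-binding lectin of dendritic cells and macrophages, was at 234 (library 1) and 61.4 CPM (library 2), but 6 of 16 and 6 of 91 cells held all of it. The C1q macrophage gate had 224 (library 1) and 6.37 CPM (library 2) of Mgl2, and the dendritic gate 403 (library 1) and 112 CPM (library 2). Irf4, a transcription factor of type 2 dendritic cells, was at 41.3 (library 1) and 10.4 CPM (library 2), against 71.9 (library 1) and 24.3 CPM (library 2) in the dendritic gate. These levels rest on few UMIs. Itgax had 20 in the cells of library 1 (interval 56.1 to 142 CPM) and 85 in those of library 2 (54.1 to 83.8 CPM). Irf4 had fewer still in both.

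Some genes were higher in the cells than in every neighbour, and their number was not counted. Of those with at least 50 CPM in both libraries, the 12 that stood out most from the highest neighbour reached ratios between 1.30 and 5.87 in the smaller or larger of the libraries, and none of these is a test. Lpl, lipoprotein lipase, led with 5.87 times the highest neighbour in library 1 and 2.30 times in library 2. It rested on single cells: 1 cell held 106 of the 111 UMIs in library 1 (95.5%) and 1 cell held 46 of 68 (67.6%) in library 2. Cysltr1, a cysteinyl leukotriene receptor, was more even, at 106 (library 1) and 123 CPM (library 2), 1.79 and 1.99 times the highest neighbour. Mif, a cytokine, stood at 1.59 and 1.52 times, the glycolytic enzyme Tpi1 at 1.75 and 1.39 times, and the glutathione peroxidase Gpx1 at 1.31 and 1.47 times. Gapdh stood at 1.30 times in both libraries. The remaining ones were Dpep2, Psen2, Chp1, Egln1, Tuba4a and Ms4a8a. Genes outside these 12 were also above every neighbour in both libraries, such as Naaa (1.54 and 1.17 times) and Klf4 (1.16 and 1.42 times). The ranking therefore does not say how many genes set the cells apart.

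Ly6c2 (chr15:75108158-75111970, minus strand) varied widely among the cells. It ranged from 0 to 140 per 10000 in library 1 with a median of 21.7, and from 0 to 204 in library 2 with a median of 7.0. At 5 per 10000, a limit set after the values were seen, 9 of 16 cells of library 1 (56.3%, exact interval 29.9 to 80.2) and 46 of 91 of library 2 (50.5%, 39.9 to 61.2) were Ly6c2-high. In the range from 2.5 to 10 per 10000 lay 2 and 13 cells, so part of library 2 sat near the limit. With a limit of 10 the shares were 56.3% and 42.9%, and with a limit of 2 they were 68.8% and 58.2%. Ly6c2-high cells were shallower, with median depths of 11107 UMIs in library 1 and 8456 UMIs in library 2, against 18303 and 15973 UMIs in Ly6c2-low cells.

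**Figure D3:**
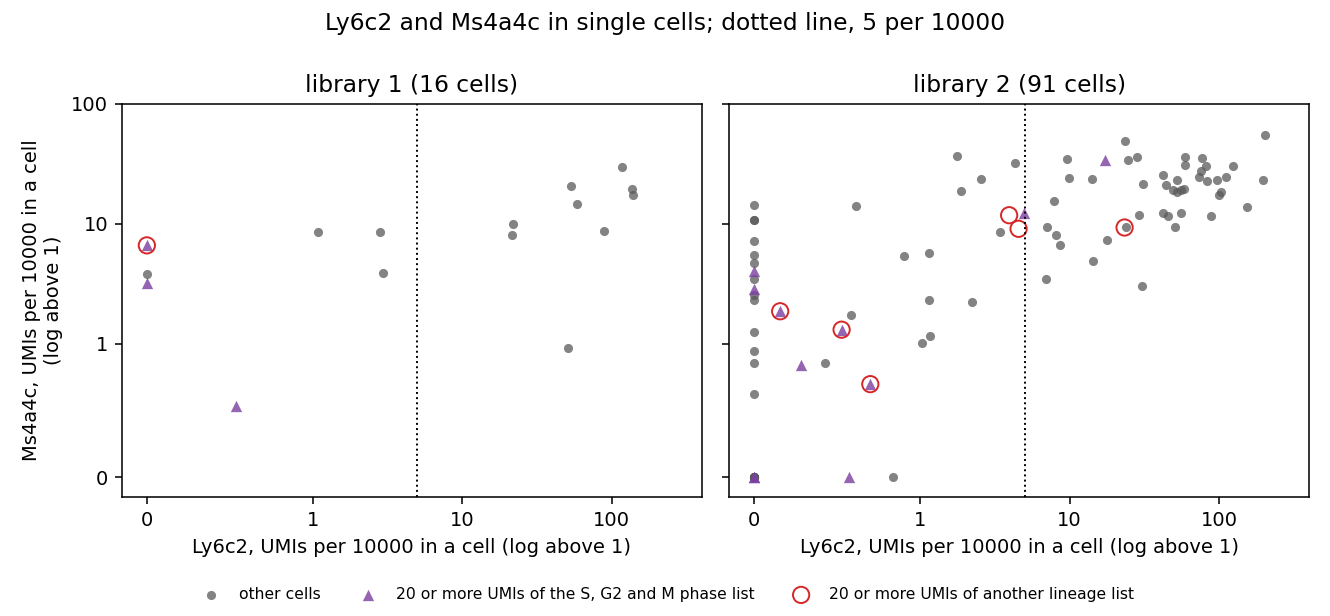
Ly6c2 (horizontal axis) and Ms4a4c (vertical axis) in each cell, as UMIs per 10000 on axes that are logarithmic above 1, with library 1 on the left and library 2 on the right. Triangles are cells with at least 20 UMIs of cell-cycle genes and red rings are cells with at least 20 UMIs of another lineage's genes; most triangles (3 of 3 and 10 of 11) lie left of the dotted line at 5 per 10000.

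Cycling cells lay almost all on the Ly6c2-low side. A limit of 20 UMIs of 16 S, G2 and M phase genes, set after the values were seen, marked 3 cells of library 1 and 11 of library 2, which held 68.0% and 76.7% of all UMIs of that list. Of these, 3 of 3 and 10 of 11 were Ly6c2-low. They were also deep, with median depths of 21631 and 27196 UMIs, against 10855 and 10101 UMIs in the other cells. Among the cells marked were the cell of another lineage of library 1 and the 3 cells of library 2 with fibroblast genes. All of these were Ly6c2-low. Leaving out cycling cells and leaving out cells of another lineage therefore remove some of the same cells.

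Ly6c2-high and Ly6c2-low cells were compared within each library, on genes with at least 30 UMIs in the 2 sets together. A gene was called when its CPM differed at least 2-fold with an interval beyond 1.5-fold. Of 4330 genes in library 2, 267 were called (6.17%), 122 higher in Ly6c2-high cells (2.82%) and 145 lower (3.35%). Of 1054 genes in library 1, 77 were called (7.31%), 49 higher (4.65%) and 28 lower (2.66%). Of 1053 genes measured in both libraries, 25 were called in the same direction in both (2.37%), 19 higher (1.8%; Ly6c2 itself included) and 6 lower (0.57%). The division was made on values of the same cells, so these are descriptions of the 2 sides, with the libraries side by side.

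Many interferon-stimulated genes of library 2, and a few of library 1, were higher on the Ly6c2-high side. All 20 genes of the type I interferon list were above 0 in library 2, with a median log2 ratio of 1.28 against -0.05 over all genes, and 13 of 20 were called (background for higher calls 2.82%). In library 1, 14 of 17 were above 0, with a median of 0.80 against 0.03 over all genes, and 3 of 17 were called (background 4.65%). Isg15, a ubiquitin-like modifier whose promoter is printed above, was at 2107 CPM in Ly6c2-high cells and 777 CPM in Ly6c2-low cells of library 2 (log2 ratio 1.44, interval 1.29 to 1.59). In library 1 it was at 903 CPM (Ly6c2-high) and 483 CPM (Ly6c2-low) (log2 ratio 0.90), not called. Mx1, an antiviral GTPase, was called in both, at 259 CPM (Ly6c2-high) and 52.7 CPM (Ly6c2-low) in library 1 and 135 CPM (Ly6c2-high) and 53.4 CPM (Ly6c2-low) in library 2. Zbp1, a sensor of nucleic acids, was also called in both, at 480 CPM (Ly6c2-high) and 158 CPM (Ly6c2-low) in library 1 and 441 CPM (Ly6c2-high) and 183 CPM (Ly6c2-low) in library 2. Without the highest cell of each gene, Mx1 was called in neither library and Zbp1 only in library 2. Without the cycling cells the list's median was 0.96 in library 2 and 0.21 in library 1, and without the cells of another lineage 1.13 and 0.71.

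Several Ms4a genes were higher on the Ly6c2-high side as well. Ms4a4c, a membrane-spanning protein, was at 1412 CPM in Ly6c2-high and 457 CPM in Ly6c2-low cells of library 1, and at 2153 CPM (Ly6c2-high) and 493 CPM (Ly6c2-low) in library 2, log2 ratios of 1.63 (1.16 to 2.11) and 2.13 (1.96 to 2.30). Across cells its rho with Ly6c2 was 0.76 over 16 cells and 0.74 over 91. Of the 5 Ms4a genes measured in both libraries, 4 were called higher in both (background 1.8%), namely Ms4a4c, Ms4a6b, Ms4a6c and Ms4a6d. Ms4a8a, which is not among these 5 because it had only 22 UMIs in library 1, was lower in library 2 with a log2 ratio of -2.09. The Ms4a genes are close relatives that could share reads.

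Plac8 was at 5105 CPM in Ly6c2-high and 850 CPM in Ly6c2-low cells of library 2 (log2 ratio 2.59), and at 3555 CPM (Ly6c2-high) and 2083 CPM (Ly6c2-low) in library 1 (log2 ratio 0.77), not called. Thbs1, thrombospondin 1, was called in both at log2 ratios of 2.84 and 1.51. Of the classical monocyte list 6 of 14 measured genes were called higher and 1 lower in library 2 (background 2.82% and 3.35%), and 3 of 7 higher and 1 lower in library 1 (background 4.65% and 2.66%). The lower one in both was Fn1, fibronectin, with log2 ratios of -1.37 in library 1 and -1.49 in library 2, and -0.80 and -1.28 without its highest cell, the first not called. Plac8 in library 1 stood at 2.54 without its highest cell, which was Ly6c2-low. Ccr2 did not differ past the limit, at -0.35 and 0.14.

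Chemokines followed the same side in part. Ccl4 was at 1268 CPM in Ly6c2-high and 308 CPM in Ly6c2-low cells of library 1, and at 821 CPM (Ly6c2-high) and 110 CPM (Ly6c2-low) in library 2. In library 1 a single Ly6c2-high cell held 42.5% of the Ccl4 UMIs and a single one 47.6% of those of Ccl3. Without the highest cell Ccl4 was at 661 CPM (Ly6c2-high) and 308 CPM (Ly6c2-low) there, and neither gene was called in library 1, while both were in library 2. Ccl3, Ccl2 and Ccl5 were called higher in both libraries with all cells. Ccl2 attracts cells with Ccr2. For Ccl2 in library 1 the log2 ratio was 1.31 with all cells and 0.12 without the cycling cells, and for Ccl5 there it was 1.05 with all cells and 4.70 without the 1 cell of another lineage. Cxcl9 went opposite ways, at 163 CPM in Ly6c2-high and 316 CPM in Ly6c2-low cells of library 1, and at 258 CPM in Ly6c2-high and 14.6 CPM in Ly6c2-low cells of library 2. This rested on 1 cell in each library with 54.7% and 66.7% of the UMIs, and without them the log2 ratios were 1.10 (-0.24 to 2.62) and 2.24 (1.22 to 3.34).

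On the Ly6c2-low side 6 genes were called in both libraries: Lpl, Pltp, Il7r, Mgl2, Tuba1a and Fn1. Pltp, a phospholipid transfer protein, was at 67.2 CPM in Ly6c2-high and 316 CPM in Ly6c2-low cells of library 1, and at 34.8 CPM (Ly6c2-high) and 396 CPM (Ly6c2-low) in library 2, log2 ratios of -2.23 and -3.51. Without the cell of another lineage the ratio in library 1 was -0.81. Mgl2 had log2 ratios of -3.43 and -2.91, and -2.77 and -1.80 without its highest cell, the second not called. Lpl was at 0 CPM in Ly6c2-high and 975 CPM in Ly6c2-low cells of library 1, and at 2.32 CPM in Ly6c2-high and 81.3 CPM in Ly6c2-low cells of library 2, in the single cells named above. Il7r, the interleukin-7 receptor, lost its call in library 1 without the cell that held 34 of its UMIs, and Tuba1a, a tubulin, stood at -0.21 there without cycling cells. Ear2 lay on the low side too, at 9.61 CPM in Ly6c2-high and 105 CPM in Ly6c2-low cells of library 1, and at 18.6 CPM in Ly6c2-high and 188 CPM in Ly6c2-low cells of library 2.

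MHC class II genes did not follow Ly6c2. H2-Aa was at 5918 CPM in Ly6c2-high and 7408 CPM in Ly6c2-low cells of library 1, and at 4982 CPM (Ly6c2-high) and 5514 CPM (Ly6c2-low) in library 2. The list had a median log2 ratio of -0.22 in library 1 and -0.15 in library 2. Of its measured genes 1 of 5 and 0 of 7 were called, the 1 being H2-Eb1 in library 1 at -1.0. Without the cycling cells the medians were 0.77 and -0.58, so the libraries then pointed opposite ways. Cell-cycle genes were lower on the Ly6c2-high side in library 2, with a median of -1.04 and 4 of 12 called, and the median was 0.32 without the cycling cells.

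**Figure D4:**
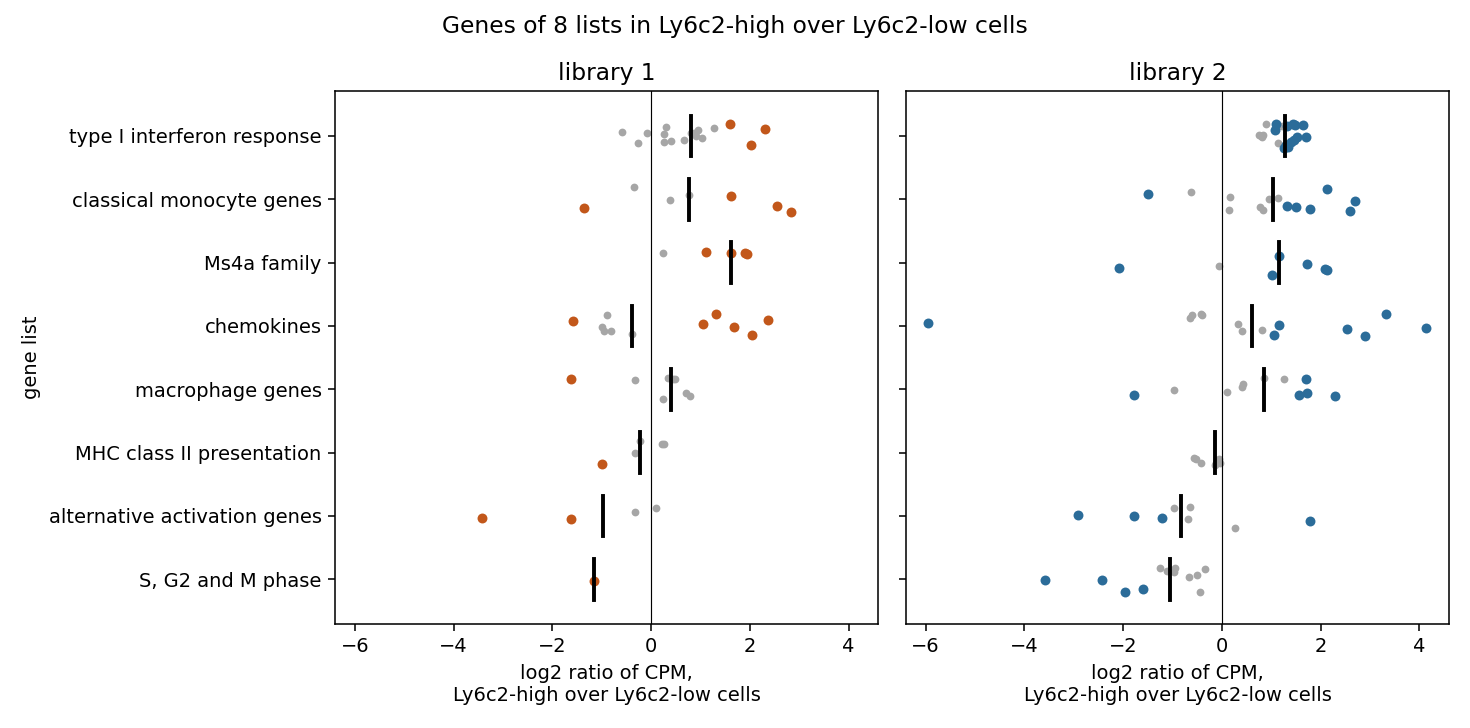
Log2 ratios of CPM in Ly6c2-high over Ly6c2-low cells (horizontal axis) for the measured genes of 8 lists, library 1 on the left and library 2 on the right, with coloured points for genes past the limit and black bars at list medians. All 20 interferon genes of library 2 lie right of 0, and the class II medians are -0.22 in library 1 and -0.15 in library 2.

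The cells of library 1 were then set against those of library 2, which are 1 knockout and 1 WT library with no source for which is which. A gene needed at least 100 UMIs over the 107 cells, and 1936 genes did. By the same limits 128 were called (6.61%), 60 higher in library 1 (3.1%) and 68 higher in library 2 (3.51%); the median log2 ratio of all 1936 was -0.02. With TMM scaling, which moves that median to -0.25, the split was 33 higher in library 1 and 116 higher in library 2. Fewer cells of a kind and less RNA of a kind per cell cannot be told apart in these sums, and library 1 rests on 16 cells.

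Most list genes differed by less than the limit. In the MHC class II list 0 of the 5 measured genes outside the rule (9 listed) were called, with a median log2 ratio of 0.33. That median was -0.01 without the cells of another lineage and -0.28 without the cycling cells, so its sign changed with the cells left out. In the type I interferon list 1 of 17 was called, Ifit1, higher in library 1, with a list median of 0.20. A single cell held 57.5% of its UMIs in library 1, and without the highest cell the ratio was 0.34. In the interferon gamma list 1 of 8 was called, Cxcl9, with a list median of 0.01, and 1 cell held 54.7% of its UMIs in library 1 and 1 cell 66.7% in library 2. In the non-classical monocyte list 0 of 7 and in the p53 list 0 of 5 were called, with medians of 0.34 and -0.05. Cdkn1a, the p53 target p21, was at 817 CPM (library 1) and 845 CPM (library 2). Of the classical monocyte list 2 of 11 were called, S100a4 and Fn1, both lower in library 1.

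Macrophage genes were called higher in library 1 for 4 of the 9 measured outside the rule (background 3.1%), with a list median of 1.11. Only 6 of the 9 ratios were above 0. Fcgr1, at 464 (library 1) and 490 CPM (library 2), and Trem2 (levels above) were on the other side, not called. Apoe was at 5076 CPM (library 1) and 2349 CPM (library 2) (log2 ratio 1.11, interval 1.01 to 1.21). Ms4a7 was at 220 (library 1) and 69.3 CPM (library 2), and Mrc1, the mannose receptor, at 280 (library 1) and 79.7 CPM (library 2). Lgmn, a lysosomal protease outside that list, was at 918 CPM (library 1) and 336 CPM (library 2) (log2 ratio 1.45). In the C1q macrophage gate the ratios were -0.16 for Apoe, -0.90 for Ms4a7, 0.13 for Mrc1 and -0.02 for Lgmn, and in the monocyte gate they were 0.35, -0.20, 0.81 and 0.17. With the rule on thinned counts the list median was -0.38, Apoe stood at -0.09 and Lgmn at -0.07; Ms4a7 and Mrc1 had too few UMIs there. In library 1 a single cell held 49.2% of the UMIs of Mrc1, whose ratio was 1.06 without it.

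A second set of genes was higher in library 1 both in the cells and in neighbouring gates. Gatm (chr2:122594467-122611303, minus strand), the first enzyme of creatine synthesis, was at 353 CPM (library 1) and 35.1 CPM (library 2) (log2 ratio 3.33, interval 2.78 to 3.90). It had a UMI in 13 of 16 and 23 of 91 cells, and without its highest cell the ratio was 3.28. In the monocyte gate Gatm had a log2 ratio of 1.65, in the C1q macrophage gate 1.66 and in the dendritic gate 1.93. Naaa, an acid amidase of lysosomes, had 2.03 in the cells and 1.62, 2.21 and 1.63 in these gates, with 1.25 in the cells when its highest cell was left out. C3, the central complement component, had 2.21 in the cells and 1.36, 2.19 and 2.00 in the gates, the last with an interval that includes 0.

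Rnf19b, a ubiquitin ligase, had 1.77 in the cells and 1.33, 1.14 and 1.63 in the gates. Sirpa, the inhibitory receptor for CD47, had 1.25 in the cells and 1.24, 0.61 and 1.44 in the gates. Kctd12 was higher in library 1 at 1.70 in the cells and at 0.72, 0.41 and 0.42 in the gates. Gpr65, a proton-sensing receptor, and Rtcb, an RNA ligase, had 1.74 and 1.82 in the cells, against 0.05 and 0.18 in the monocyte gate and -0.09 and 0.18 in the C1q macrophage gate. Mgl2 had 1.93 in the cells, 5.14 in the C1q macrophage gate and 1.84 in the dendritic gate, with too few UMIs in the monocyte gate. Lpl had 3.23 in the cells with its highest cell and 0.49 without it. In the monocyte gate Lpl had 1.88 and in the C1q macrophage gate 3.09, with too few UMIs in the dendritic gate.

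Of 8 measured genes of metal binding and oxidative stress, 4 were called lower in library 1 (background 3.51%) and 0 higher. All 8 ratios were below 0, with a list median of -1.14. Fth1, the ferritin heavy chain, was at 9891 CPM (library 1) and 17931 CPM (library 2) (log2 ratio -0.86), under the 2-fold limit. Mt1, a metallothionein, was at 225 CPM (library 1) and 658 CPM (library 2) (log2 ratio -1.55, interval -2.0 to -1.13), and Slc7a11, the cystine transporter, at 55.1 CPM (library 1) and 262 CPM (library 2) (log2 ratio -2.25). Prdx1, a peroxiredoxin, stood at -1.04. The same genes were also below 0 in the monocyte gate, at -0.87 for Fth1, -1.93 for Mt1, -1.39 for Slc7a11 and -0.60 for Prdx1, and in the C1q macrophage gate, at -0.48, -0.37, -1.18 and -0.54. With the rule on thinned counts the log2 ratio of Slc7a11 was 0.00167.

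Hypoxia and glycolysis genes followed, with 4 of 9 called lower in library 1 (background 3.51%) and a median of -0.79. Vegfa, the vascular growth factor, was at 68.8 CPM (library 1) and 224 CPM (library 2), and Hilpda, a lipid droplet protein induced by hypoxia, at 50.5 (library 1) and 191 CPM (library 2). Bnip3, a mitochondrial protein of the same response, was at 18.4 (library 1) and 89.3 CPM (library 2) and Ldha, lactate dehydrogenase, at 399 (library 1) and 858 CPM (library 2). Slc2a1, Hk2 and Pfkp were on the other side at 0.32, 0.15 and 0.95, not called. In the monocyte gate the ratios were -1.37 for Vegfa, -1.77 for Hilpda, -0.89 for Bnip3 and -0.52 for Ldha, and in the C1q macrophage gate -0.50, -1.64, -1.04 and -0.33. In the dendritic gate none of the 4 was called, with Vegfa on the other side at 1.42 (0.39 to 2.35), Bnip3 at 0.54 (-2.67 to 2.74), Hilpda at -0.92 and Ldha at -0.82.

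Further genes lower in library 1 had UMIs in many cells of library 2. The share of T cells with a UMI was also higher in library 2. It was 0.027% (library 1) and 3.96% (library 2) for Clec4d and 2.79% (library 1) and 33.2% (library 2) for Spp1. For Cxcl2 it was 3.58% (library 1) and 28.6% (library 2). The median estimate of free RNA, a rough one, was higher in library 2 as well (above), and the source of these UMIs was not tested. Clec4d, a C-type lectin that senses mycobacterial glycolipid, had 3 UMIs in 3 of 16 cells and 211 UMIs in 65 of 91 cells (log2 ratio -3.61, interval -5.90 to -2.04). Its ratios were -1.15 in the monocyte gate and -2.29 in the C1q macrophage gate. Clec4n, the fungal receptor Dectin-2, was at 101 (library 1) and 391 CPM (library 2), a ratio of -1.95, with -0.58 in the monocyte gate, -0.89 in the C1q macrophage gate and 1.09 (0.30 to 1.82) in the dendritic gate. Spp1, osteopontin, was at 96.4 (library 1) and 616 CPM (library 2), a ratio of -2.68, with -2.41 and -1.51 in the gates. Cxcl2, a chemokine for neutrophils, was at 1717 (library 1) and 5220 CPM (library 2), and 1 cell held 60.7% of its UMIs in library 1; without the highest cell the ratio was -2.68, against -1.60 with it.

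S100a6 was at 2336 CPM (library 1) and 7688 CPM (library 2) (log2 ratio -1.72), with -1.05 without the cells of another lineage and -0.93 without the cycling cells. Among T cells 42.0% (library 1) and 99.9% (library 2) had a UMI of S100a6. S100a4 was at 1322 (library 1) and 2820 CPM (library 2), a ratio of -1.09, with -0.29 without the cycling cells, 0.14 in the monocyte gate and 0.07 under the rule on thinned counts. Lyz1, a close relative of Lyz2 that could share its reads, was at 0 UMIs in library 1 and at 198 UMIs in 13 cells of library 2. With a floor of 3 counts for library 1 this is 11.5-fold lower, and the interval reaches a log2 ratio of -3.21. The 2 highest cells of library 2 held 47 and 43 of these UMIs. In the C1q macrophage gate Lyz1 went the other way, at 52.6 (library 1) and 39.8 CPM (library 2). The log2 ratio there was 0.40 (0.20 to 0.60). The monocyte gate held 1 UMI of Lyz1 in library 1 and 21 in library 2, not called. Lyz2 itself, a gene of the rule, was at 5678 (library 1) and 11839 CPM (library 2).

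Most of the remaining extreme ratios rested on few cells. Sparc, Col1a2, Bgn, Tpm1 and Dcn, genes of fibroblasts or contractile cells, had 1, 0, 3, 3 and 0 UMIs in library 1 and 259, 249, 135, 173 and 100 in library 2. Gzmc, Gzmf and Gzma, granzymes of killer cells, had 2, 0 and 0 UMIs in library 1 and 445, 355 and 130 in library 2, where 1 cell held 90.6%, 97.2% and 90% of them. Without the cells of another lineage, library 1 held 1, 0, 1, 3 and 0 UMIs of Sparc, Col1a2, Bgn, Tpm1 and Dcn, and library 2 held 16, 6, 14, 18 and 4. Gzmc, Gzmf and Gzma then had 2, 0 and 0 UMIs in library 1 and 41, 9 and 11 in library 2, too few for a direction. Ifitm1, an interferon-induced membrane protein, had 1 UMI in library 1 and 469 in 29 cells of library 2, and without its highest cell the log2 ratio of Ifitm1 was -3.80.

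**Figure D5:**
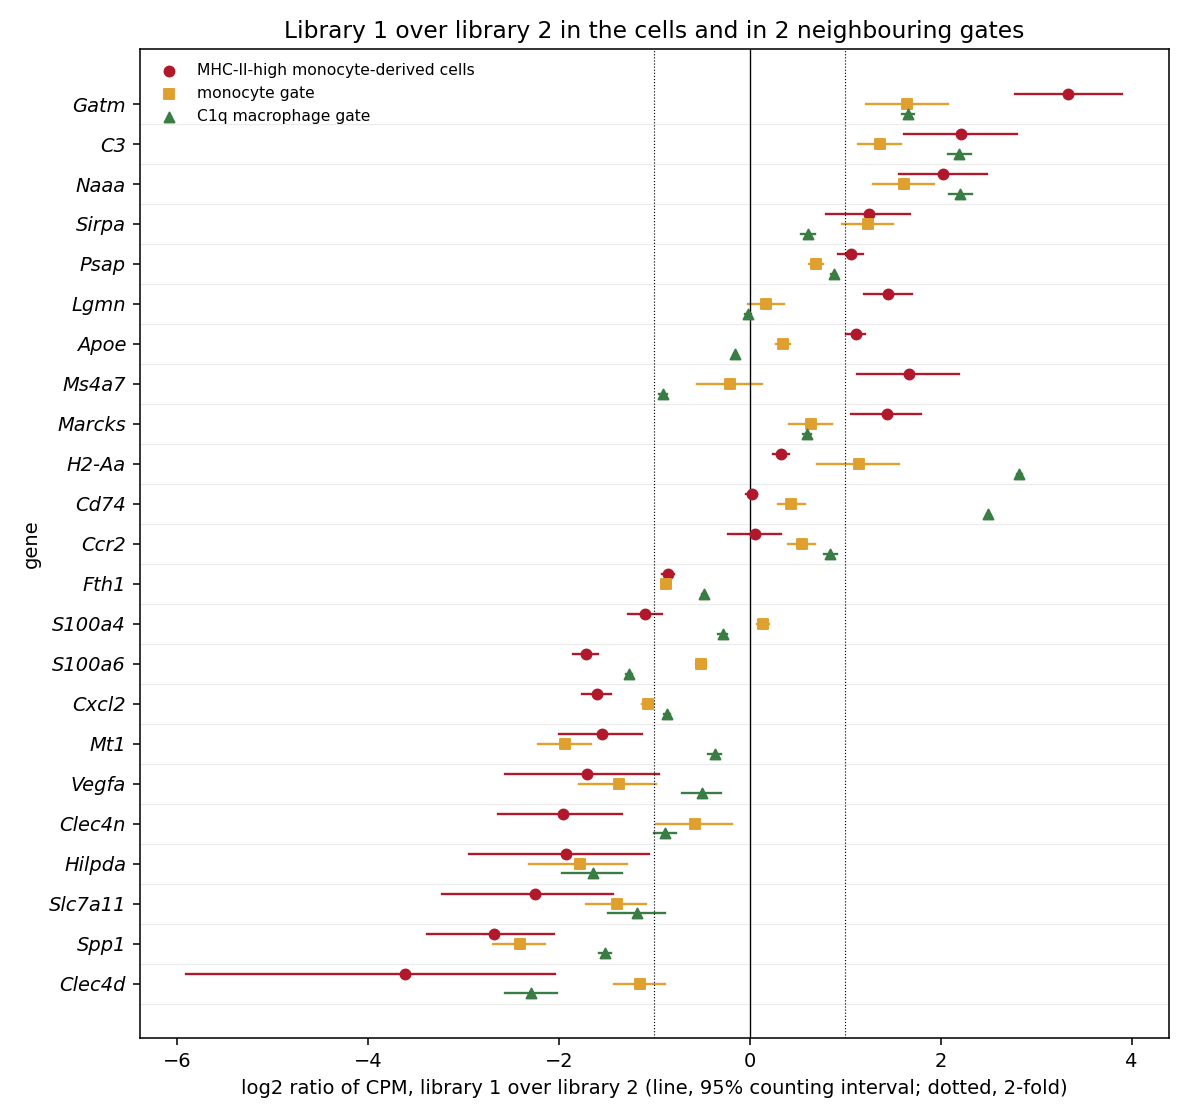
Log2 ratio of CPM in library 1 over library 2 (horizontal axis) with 95% counting intervals for 23 genes, in the MHC-II-high monocyte-derived cells (red circles), the monocyte gate (yellow squares) and the C1q macrophage gate (green triangles). Gatm, C3, Naaa, Sirpa and Psap lie right of 0 and Spp1, Clec4d, Hilpda and Slc7a11 left of 0 in all 3 sets, while Apoe, Lgmn and Ms4a7 lie right of 1 in the red circles and within 1 of 0 in the others.

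Genes reported as miR-21 targets were examined because 1 library comes from tumours of miR-21 knockout cells, although the cells measured are host cells. The mature miRNA, from RefSeq on GRCm38.p6 at chr11:86584120-86584141, minus strand, is shown with its seed (bases 2 to 8) in capitals.
mmu-miR-21a-5p: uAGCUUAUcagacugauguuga
Of 18 listed genes 7 had enough UMIs and 2 were called, in opposite directions (background 3.1% higher in library 1 and 3.51% higher in library 2). Marcks, a substrate of protein kinase C, was at 422 CPM (library 1) and 156 CPM (library 2) (log2 ratio 1.43, interval 1.06 to 1.80), with 0.64 in the monocyte gate and 0.60 in the C1q macrophage gate. Tpm1, a tropomyosin, was lower in library 1 with all cells, and 1 cell held 60.1% of its UMIs in library 2, the cell with 327 UMIs of fibroblast genes. Without the cells of another lineage Tpm1 was at 15.9 CPM (library 1) and 16.5 CPM (library 2). Btg2, Peli1, Stat3 and Rhob were at 0.48, 0.45, 0.54 and 0.27, none called. Pdcd4, a well-studied target, was at 27.5 CPM (library 1) and 35.1 CPM (library 2) and had too few UMIs for the comparison.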

How the data were processed

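Droplet 3′ libraries of CD45+ cells were made from miR-21 knockout and WT MTC-Q1 tumours, 1 per group. The authors deposited 1 aggregated matrix of whole-number UMI counts, not normalized, with 31053 genes and 12514 barcodes. It was made with Cell Ranger 3.1.0 per the file headers and on mm10 per the submitters' processing notes. No source used here gives the strand setting, read filters or order of aggregation. Antisense genes and close relatives (H2, Ear, Sirpb1, Lyz and Ms4a genes) are therefore uncertain.

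The cells, the gene lists and the tests were chosen with earlier results of these data known. UMIs were summed per library over the cells, divided by their total and given as CPM. Ratios have exact conditional binomial intervals and shares exact Clopper-Pearson intervals, at 95%, for counting error only. A gene at 0 was set to a floor of 3 counts per library. Doublets were scored with Scrublet in scanpy 1.11.5 (expected rate 0.06) and none was removed. Named genes were members of the lists, the 10 most abundant, the 10 highest and 10 lowest called ratios between libraries with at least 50 CPM in 1 library, and the 12 genes highest over the neighbouring gates. Genes ranked on Ly6c2 were chosen after the values were seen. Python 3.11.15, numpy 2.4.6, scipy 1.17.1 and pandas 2.3.3 were used, and the ratio step was tested on simulated data. Results for some genes are not reported here.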

Additional observations from a re-analysis of the deposited data

How the results depend on the processing

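No paired analysis was possible because each group has 1 library. The median log2 ratio of the MHC class II list, 0.33 with all cells, was 0.027 without the 5% highest doublet scores, 0.48 in cells of at least 10000 UMIs, 0.020 with C1q under 10, 0.11 with equal weight per cell, 0.10 with TMM scaling, 0.15 without the highest cell of each gene and 0.24 with the rule on thinned counts. It was -0.011 without the cells of another lineage and -0.28 without the cycling cells. The share of the cells was 0.702% of library 1 and 0.996% of library 2 among cells of at least 10000 UMIs. In library 2 it was 0.944% with at least 20 UMIs of H2-Ab1 and 0.535% with the rule on thinned counts. The number of genes called higher in library 1, 60 with the main settings, was 33 with TMM scaling, 124 with genes of at least 30 UMIs, 32 without the highest cell and 37 on thinned counts. The number called higher in library 2, 68 with the main settings, was 116 with TMM scaling, 42 with free RNA subtracted, 111 with genes of at least 30 UMIs, 42 without the cycling cells and 45 on thinned counts. The classical monocyte median of 0.06 was -0.62 with genes of at least 30 UMIs. On thinned counts the type I interferon median of 0.20 was -0.82 and the macrophage median of 1.11 was -0.38.

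Without the highest cell the values of Dcn (0.18), Gzmf (0.81) and Gzma (0.44) are set by the floor of 3 counts, since library 1 held 0 UMIs of each, and give no direction. Signs turned on thinned counts for the log2 ratio of Slc7a11 (0.00167), and those of S100a4 (0.067), Apoe (-0.088), Ccl4 (-0.59) and Lgmn (-0.071). Of 58 named genes called, 54 stayed called with at most 5% mitochondrial UMIs, 27 without the cycling cells and 13 on thinned counts, where 11 and 38 cells passed. The settings on other lineages, cycling, highest cells and thinning were chosen after seeing the data, and the cause of these changes was not tested.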
